A study of Rattus norvegicus with 4 samples.

Results

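The genes described here make cholesterol, sense it and move it out of the cell. They are 35 genes chosen by name from the known pathway, with earlier results of these data known, and looked up by symbol among the 16290 genes of the deposited table. All 35 were found, each once, and all 35 passed the filter on low values (10 or more in 2 or more of the libraries). The cells were neonatal rat cardiomyocytes, heart muscle cells of postnatal day 3, cultured in medium with 5% horse serum. Adenovirus vectors, viruses used to carry genes into cells, encoded Pdk3 in the Pdk3 group (libraries Pdk3 1 and Pdk3 2) or mock in the Mock group (libraries Mock 1 and Mock 2). All 4 libraries therefore come from cells that had met a vector. The labels do not name the promoter that drives Pdk3, and they do not say whether libraries of a group came from separate cultures, so p-values measure the spread between libraries, which may be technical.

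Cholesterol is built from acetyl-CoA through mevalonate, isoprenoid diphosphates, squalene and lanosterol. The SREBP transcription factors switch the pathway on: when membranes hold little sterol, Scap carries SREBP from the endoplasmic reticulum to the Golgi, where a pair of proteases releases the active factor, and the Insig proteins hold Scap back when sterol is plentiful. Liver X receptors work in the other direction, since oxidised sterols activate them and they induce the pumps that export cholesterol.

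Pdk3, a kinase that inhibits the pyruvate dehydrogenase complex, served as the check of the labels. It had normalised counts of 1218 and 1177 in the Pdk3 libraries, against 396 and 411 in the Mock libraries, 2.97-fold higher (log2 fold change 1.57 ± 0.03, limma adjusted p = 1.47e-06). Transcripts of the vector and of the endogenous gene are counted together there. Scaled back, the libraries held 4139000 to 4707000 reads in genes. Libraries of a pair differed by less than counting noise: chi-square per gene was 0.519 in the Pdk3 pair and 0.523 in the Mock pair over 9138 genes with a mean of at least 100, where counting noise alone gives 1. Both pairs were alike in this, and neither was merged into 1 sample. That likeness does not show that the 2 libraries of a pair are separate samples. The cause of this narrow spread was not tested, and the main counts of calls are therefore also given with every p-value raised to at least an exact binomial p from each group's summed reads ("floored at counting noise"). The cardiomyocyte marker Myh6 was high in all libraries, at 4127 and 4040 in the Pdk3 libraries and 3865 and 3806 in the Mock libraries. Other cardiomyocyte markers ranged down to Myl7, at 282 and 289 in Pdk3 and 250 and 265 in Mock. The fibroblast marker Col1a1 was high too, at 3027 and 2932 in Pdk3 and 2973 and 2964 in Mock.

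Of the 35 sterol genes, 19 were higher in Pdk3 than in Mock, 6 were lower, and 10 did not pass the test (limma, adjusted p under 0.05 over all genes tested). Among the 12838 genes tested, 11.7% were higher and 11.3% lower by the same rule. Floored at counting noise, 18 sterol genes were higher and 4 lower, against 8.38% and 7.45% of all genes tested. The 19 higher genes were 15 synthesis enzymes, Srebf1, Srebf2, Insig1 and Stard4, and the 6 lower ones were Ggps1, Tm7sf2, Insig2, Nr1h2, Abca1 and Abcg1. When libraries were rescaled so that the median ribosomal protein gene did not differ between groups, 18 sterol genes were higher and 7 lower, while all genes tested gave 913 higher and 3067 lower, against 1496 and 1449 as deposited. With any 1 of the 4 libraries left out, no call remained, for sterol genes or for any other gene. The median log2 fold change of the 19 synthesis enzymes was then 0.424 to 0.483, against -0.007 to -0.005 over all genes tested. Median log2 fold changes (on the log2(value + 1) scale) were 0.35 over 8 genes of the mevalonate steps, 0.48 over 11 genes of the squalene and sterol steps, 0.08 over 7 genes of the SREBP machinery, -0.02 over 4 genes of sterol movement and storage, and -0.40 over 5 liver X receptor genes and targets. The last of these is the value of Mylip itself, a gene with 15 to 30 counts whose groups overlapped (limma adjusted p = 0.392; -0.855 to 0.052 with single libraries left out). The median of all genes tested was -0.01. In bulk RNA, fewer cells of a type and less RNA per cell cannot be told apart.

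**Figure D1:**
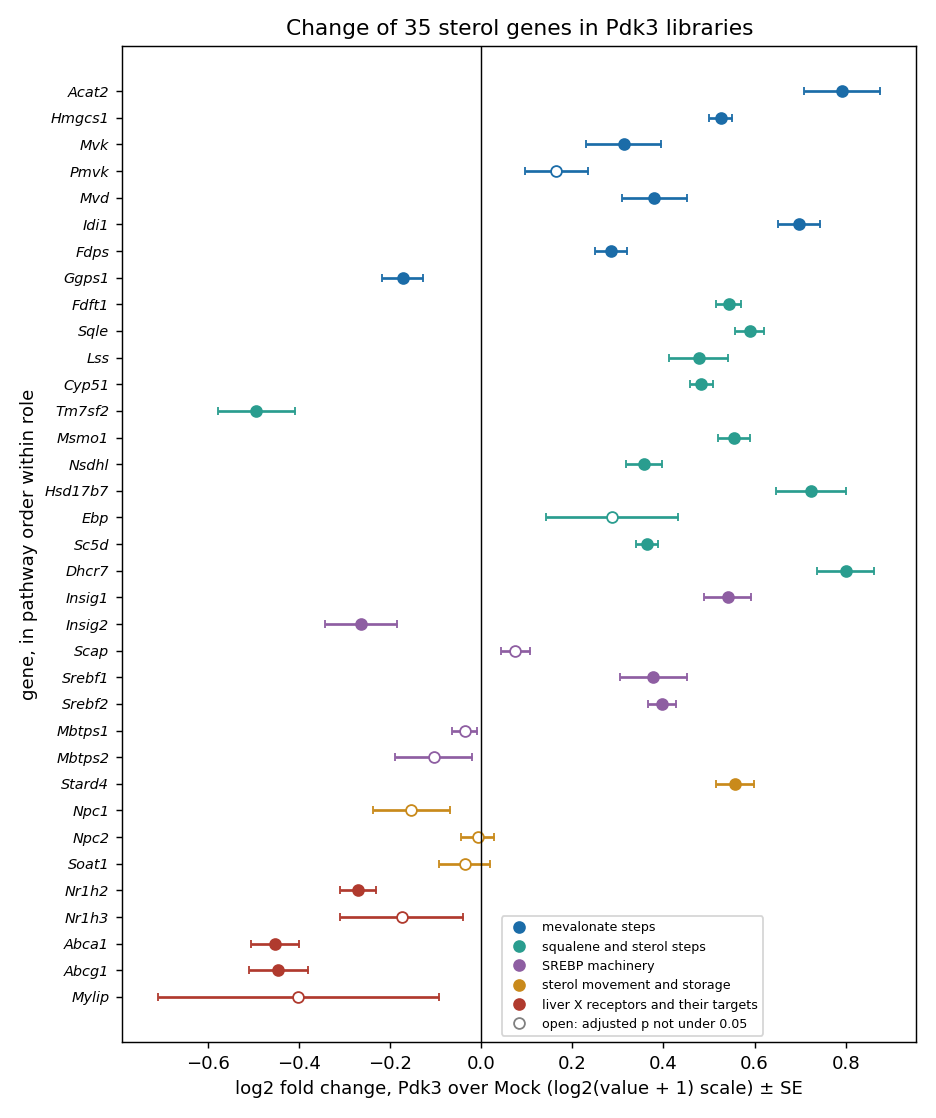
Log2 fold change of each of the 35 sterol genes (x axis, Pdk3 over Mock, bars ± SE from limma), one gene per row and coloured by role; open points had an adjusted p not under 0.05. Dhcr7 and Acat2 stand farthest to the right at 0.80 and 0.79, and Tm7sf2, Abca1 and Abcg1 farthest to the left at -0.49, -0.45 and -0.45.

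Both Pdk3 libraries lay above both Mock libraries for 22 of the 35 genes and below both for 8, and the groups overlapped for 5. For comparison, 29.9% of all genes tested had both Pdk3 libraries above and 31.1% had both below. The 5 genes with overlap were Mbtps2, Npc1, Npc2, Soat1 and Mylip, none of them an enzyme of synthesis.

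**Figure D2:**
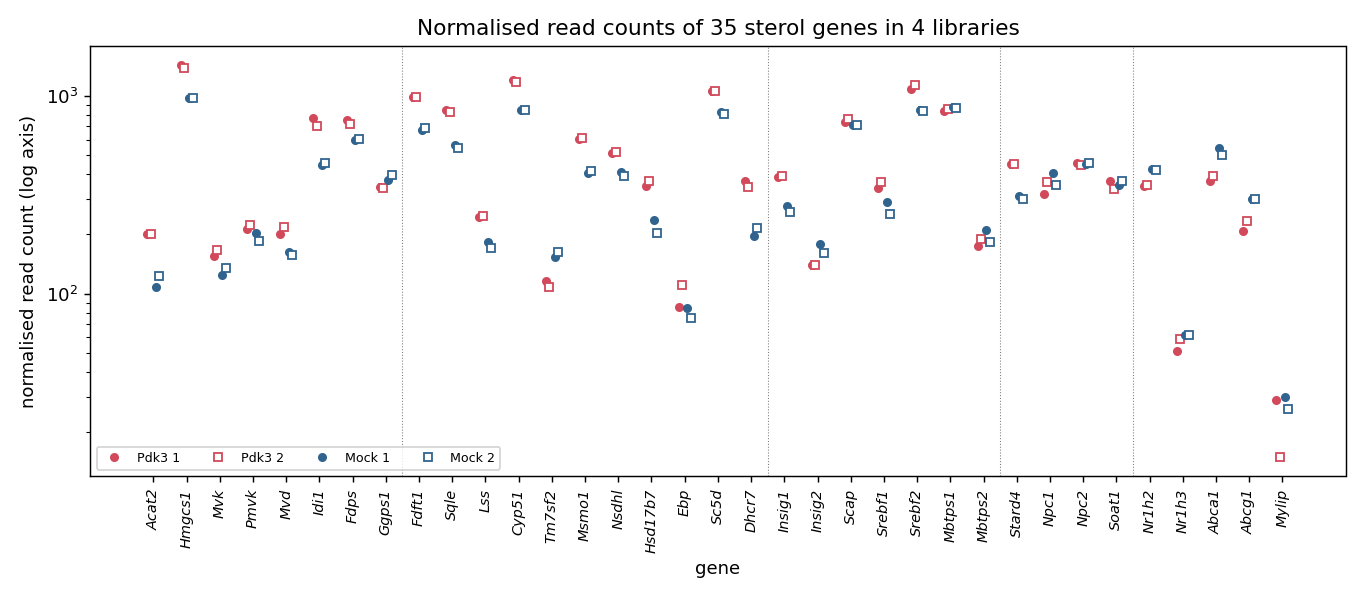
Normalised read counts (y axis, log scale) of the 35 sterol genes in Pdk3 1, Pdk3 2, Mock 1 and Mock 2, with dotted lines between roles. The 2 libraries of a group lie close together for most genes, and all 19 synthesis enzymes show no overlap between groups, 17 higher and 2 lower in Pdk3. Of all genes tested, 29.9% had both Pdk3 libraries above and 31.1% had both below.

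Of the 19 enzymes of synthesis, 15 were higher and 2 lower, and 8 of the higher ones rose at least 1.4-fold. Counted among the 19 is Ggps1, 1 of the 2 lower genes, whose product leaves the sterol path. Floored at counting noise, 14 were higher and 1 lower. All genes tested gave 11.7% higher and 11.3% lower, or 8.38% and 7.45% floored. Summed over the 19 genes, normalised counts were 10403 in Pdk3 1 and 10282 in Pdk3 2, against 7556 in Mock 1 and 7550 in Mock 2, which is 36.9% more in the Pdk3 libraries. The sums of the 2 libraries of a group were close, and the groups stood far apart.

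Of the 8 genes of the mevalonate steps, 6 were higher and 1 was lower, against 11.7% and 11.3% of all genes tested. Acat2, the cytosolic thiolase that joins acetyl-CoA units (ENSRNOG00000019189, chromosome 1, 47972399 to 47992653, in rn6 as are all gene positions here), had 199 and 200 counts in the Pdk3 libraries and 108 and 122 in the Mock libraries. Its mean was 199.5 ± 0.7 in Pdk3 and 115.0 ± 9.9 in Mock (SD, n = 2 each), a log2 fold change of 0.79 ± 0.08 (SE; limma adjusted p = 0.000645). Hmgcs1, the synthase that makes HMG-CoA (ENSRNOG00000016552, chromosome 2, 52431601 to 52445055), had 1420 and 1376 counts in Pdk3 and 969 and 972 in Mock. The pairs are tight and well apart, and the log2 fold change was 0.53 ± 0.02 (limma adjusted p = 1.99e-05). Idi1, the isomerase that interconverts the 5-carbon isoprenoid units, had 768 and 702 counts in Pdk3, against 447 and 458 in Mock. Idi1 rose 1.62-fold (0.70 ± 0.05 on the log2 scale, limma adjusted p = 7.81e-05).

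The steps between mevalonate and isopentenyl diphosphate moved less. Mvk, mevalonate kinase, had 155 and 166 counts in Pdk3 and 124 and 134 in Mock (log2 fold change 0.31, limma adjusted p = 0.0312). Pmvk, phosphomevalonate kinase, had 213 and 222 counts in Pdk3 and 203 and 185 in Mock, and its difference of 12.1% did not pass the test (limma adjusted p = 0.128). Mvd, the decarboxylase that follows, had 200 and 216 counts in Pdk3 and 163 and 156 in Mock (log2 fold change 0.38, limma adjusted p = 0.00832). All 3 genes, like 29.9% of all genes tested, had both Pdk3 libraries above both Mock libraries, with the smallest gap for Pmvk. The call of Mvk ended with p floored at counting noise (adjusted p = 0.0571). The calls of Mvk and Mvd also ended when limma was run with no intensity trend (adjusted p = 0.0853 and 0.0577) or with no filter on low values (adjusted p = 0.0857 and 0.0505).

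At the branch point the neighbouring genes went apart. Fdps makes farnesyl diphosphate, the last isoprenoid shared by sterols and other products, and had 754 and 715 counts in Pdk3 against 599 and 607 in Mock (log2 fold change 0.28 ± 0.04, limma adjusted p = 0.00142, and 0.0612 with no intensity trend). Ggps1 extends farnesyl diphosphate to geranylgeranyl diphosphate, which leaves the sterol path for protein prenylation, and had 344 and 340 counts in Pdk3 against 375 and 396 in Mock. The difference of -11.3% passed (log2 fold change -0.17, limma adjusted p = 0.0318). That call ended with p floored at counting noise (adjusted p = 0.109), with no intensity trend (0.121) and with no filter on low values (0.0848). The ratio of Fdps to Ggps1 counts within a library, which rescaling of libraries cannot change, was 2.19 and 2.1 in Pdk3 and 1.6 and 1.53 in Mock. With 2 libraries a group the exact permutation test cannot give a p under 0.333 (two-sided), which is what it gave here. A ratio of a gene called higher to one called lower separates the groups by construction. Such ratios, here and below, add no support to the calls.

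In the squalene and sterol steps, 9 of 11 genes were higher and 1 was lower, against 11.7% and 11.3% of all genes tested. Fdft1, squalene synthase, which commits farnesyl diphosphate to sterols (ENSRNOG00000021314, chromosome 15, 46339249 to 46367302), had 985 and 986 counts in Pdk3 and 667 and 685 in Mock (1.46-fold, limma adjusted p = 2.65e-05). Sqle, squalene epoxidase, an oxygen-requiring control point of the pathway (ENSRNOG00000009550, chromosome 7, 99609191 to 99624732), had 842 and 825 counts in Pdk3 and 563 and 545 in Mock (1.5-fold, log2 fold change 0.59 ± 0.03, limma adjusted p = 3.32e-05). Lss closes the ring to lanosterol and had 244 and 245 counts in Pdk3 against 182 and 169 in Mock (1.39-fold). These 3 consecutive genes rose by similar folds. Each had both Pdk3 libraries above both Mock libraries, as did 29.9% of all genes tested.

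After lanosterol, Cyp51, the demethylase that acts on it, had 1193 and 1170 counts in Pdk3 and 845 and 845 in Mock (1.4-fold, limma adjusted p = 2.64e-05). Msmo1, which oxidises the methyl groups at carbon 4, had 603 and 610 counts in Pdk3 and 408 and 417 in Mock (1.47-fold). Nsdhl, which acts in the same demethylation, had 512 and 518 counts in Pdk3 and 410 and 394 in Mock (1.28-fold). These 3 genes, like 29.9% of all genes tested, had both Pdk3 libraries above both Mock libraries. Hsd17b7, the reductase that completes it, rose more, with 348 and 372 counts in Pdk3 against 234 and 202 in Mock (1.65-fold, log2 fold change 0.72 ± 0.08, limma adjusted p = 0.000644). Msmo1, Nsdhl and Hsd17b7, the genes of this demethylation, thus rose by folds of 1.28 to 1.65.

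Of the last steps, Sc5d, the desaturase, had 1053 and 1054 counts in Pdk3 and 826 and 811 in Mock (1.29-fold). Dhcr7, the reductase that makes cholesterol from its last precursor (ENSRNOG00000020776, chromosome 1, 217018916 to 217034904), had 369 and 346 counts in Pdk3 and 196 and 214 in Mock. It rose 1.74-fold (0.80 ± 0.06 on the log2 scale, limma adjusted p = 0.00017), within the error of the 1.73-fold of Acat2. Ebp, the sterol isomerase, had 85 and 111 counts in Pdk3 and 84 and 75 in Mock and did not pass (limma adjusted p = 0.196). Its Pdk3 libraries differed from each other by more than Pdk3 1 differed from either Mock library.

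Tm7sf2 was the gene of this group that fell. It encodes a sterol reductase that acts just after the lanosterol demethylase and had 116 and 108 counts in Pdk3 against 153 and 163 in Mock, a difference of -29.1% (log2 fold change -0.49 ± 0.08, limma adjusted p = 0.00573, and 0.00615 floored at counting noise). Its neighbours before and after it in the pathway, Cyp51 and Msmo1, rose. The ratio of Sqle to Tm7sf2 counts was 7.26 and 7.64 in the Pdk3 libraries and 3.68 and 3.34 in the Mock libraries (exact permutation p = 0.333, the smallest possible). A gene listed as AABR07072017.1 overlaps 1066 bases of Tm7sf2 on the same strand in rn6, so reads there cannot be assigned with certainty. It was lower too, with 221 and 244 counts in Pdk3 and 284 and 266 in Mock (limma adjusted p = 0.0377).

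Promoter sequences were searched for short motifs that had been listed in the plan. RefSeq start sites of build GRCr8 gave a window of 250 bases before to 50 after the start for 30 of the 35 genes (Pmvk, Fdft1, Sqle, Stard4 and Abcg1 had no entry). The CCAAT box, the letters that the factor NF-Y reads and a known partner site of SREBP in this pathway, was searched on both strands. It stood in 13 of 16 enzyme promoters (81.2%), in 4 of 7 of the SREBP machinery, in 2 of 3 of sterol movement and storage (Npc2 and Soat1, which did not pass the test) and in 1 of 4 of the liver X receptor group, compared with 37.6% of 9539 promoters of genes tested. With 2 or more boxes, a count made after the first was seen, there were 10 of 16 enzyme promoters (62.5%), against 13.5% of the promoters of genes tested. The enzymes whose windows held none were Acat2, Cyp51 and Dhcr7, all 3 called higher, whereas Ggps1 and Tm7sf2, which were lower, held boxes. The members were chosen as one pathway, so these shares describe the pathway's promoters and not the response to Pdk3.

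Shown are 4 promoters with CCAAT boxes (the enzymes Hmgcs1, Idi1 and Msmo1, and Insig1) and 2 without (the enzyme Dhcr7 and the pump Abca1). The choice does not tie boxes to direction. Ggps1, Tm7sf2 and Insig2, which were lower, held boxes and are not shown. The sequences are in lower case with each box in capitals (ATTGG where it lies on the other strand). They run 5′ to 3′ on the gene's strand and are from RefSeq, build GRCr8. The window of Hmgcs1 is chr2:53382054-53382353, plus strand. The window of Idi1 is chr17:66547475-66547774, minus strand. The window of Msmo1 is chr16:29746863-29747162, plus strand. The window of Insig1 is chr4:8057720-8058019, minus strand. That of Dhcr7 is chr1:208444184-208444483, plus strand, and that of Abca1 chr5:72596424-72596723, minus strand.
Hmgcs1: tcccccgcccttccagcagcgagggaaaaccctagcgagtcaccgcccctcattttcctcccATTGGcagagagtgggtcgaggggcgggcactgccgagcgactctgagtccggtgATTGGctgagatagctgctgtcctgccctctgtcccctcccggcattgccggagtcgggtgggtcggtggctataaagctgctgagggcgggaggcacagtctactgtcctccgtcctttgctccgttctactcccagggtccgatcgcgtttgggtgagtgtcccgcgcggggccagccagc
Idi1: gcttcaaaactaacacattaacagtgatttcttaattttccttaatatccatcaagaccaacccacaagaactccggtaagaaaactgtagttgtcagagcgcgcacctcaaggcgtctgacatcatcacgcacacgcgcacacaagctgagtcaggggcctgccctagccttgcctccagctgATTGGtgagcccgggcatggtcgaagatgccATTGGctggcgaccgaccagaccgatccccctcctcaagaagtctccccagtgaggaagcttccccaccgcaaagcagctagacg
Msmo1: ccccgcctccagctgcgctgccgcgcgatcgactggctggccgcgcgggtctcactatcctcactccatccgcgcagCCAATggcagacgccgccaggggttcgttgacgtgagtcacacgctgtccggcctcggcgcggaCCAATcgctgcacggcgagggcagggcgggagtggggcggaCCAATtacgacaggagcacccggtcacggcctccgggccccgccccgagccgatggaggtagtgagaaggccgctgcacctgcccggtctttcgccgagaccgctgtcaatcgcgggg
Insig1: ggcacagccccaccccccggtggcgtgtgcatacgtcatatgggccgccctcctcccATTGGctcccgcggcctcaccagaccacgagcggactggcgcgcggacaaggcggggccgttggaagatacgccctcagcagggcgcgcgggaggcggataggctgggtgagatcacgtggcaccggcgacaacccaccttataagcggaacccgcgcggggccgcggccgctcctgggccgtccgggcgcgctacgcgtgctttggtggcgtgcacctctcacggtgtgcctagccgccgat
Dhcr7: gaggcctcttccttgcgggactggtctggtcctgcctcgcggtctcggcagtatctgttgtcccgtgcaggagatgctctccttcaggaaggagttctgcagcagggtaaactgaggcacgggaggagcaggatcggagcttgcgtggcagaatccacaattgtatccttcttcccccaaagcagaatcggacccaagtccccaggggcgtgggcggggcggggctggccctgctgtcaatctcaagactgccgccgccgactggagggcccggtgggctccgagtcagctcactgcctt
Abca1: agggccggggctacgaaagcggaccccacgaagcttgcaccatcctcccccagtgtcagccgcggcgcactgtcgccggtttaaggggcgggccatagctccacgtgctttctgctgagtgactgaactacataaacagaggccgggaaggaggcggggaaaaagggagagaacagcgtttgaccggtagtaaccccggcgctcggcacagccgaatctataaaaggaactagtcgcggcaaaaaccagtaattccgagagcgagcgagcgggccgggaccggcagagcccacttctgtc
Counting from 0 at the annotated start, the boxes of Hmgcs1 begin at positions -188 and -133, and those of Idi1 at -66 and -35. Msmo1 has 3, all on the gene's strand, at -173, -109 and -68. Insig1 has a box at -193 and an E-box, CACGTG, at -79. Dhcr7, which rose, and Abca1, which fell, show no capitals.

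**Figure D3:**
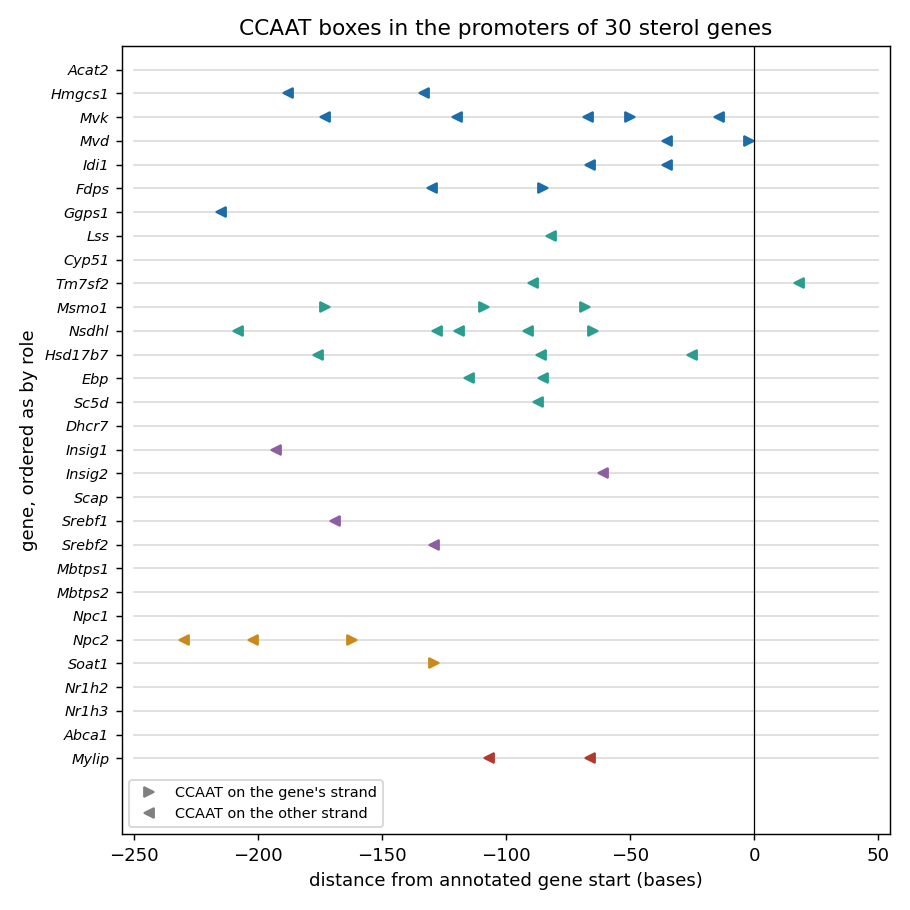
Position of each CCAAT box (x axis, bases from the annotated start, first base of the box) in the promoter windows of 30 sterol genes, one gene per row and coloured by role; the arrowhead gives the strand. Of the 31 boxes in enzyme promoters, 26 begin between 200 and 25 bases before the start. This span was not planned and has no comparison with other promoters, so it does not show clustering.

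Other short motifs were searched in the same windows on both strands. The form TCACCCCAC and the looser TCACNCCAC, which includes it, of the sterol response element were in 0 of the 30 windows, and in 0.451% and 1.21% of the promoters of genes tested. SREBP is known to bind many variants of this element, and a missing match says only that these letters are not in these windows. The E-box CACGTG was in 4 of 30 (Sc5d, Insig1, Scap and Abca1; 13.3%, against 9.25% of the promoters of genes tested). The Sp1 box GGGCGG was in 23 of 30 (76.7%, against 63.2%).

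In the SREBP machinery, 3 genes were higher, 1 was lower and 3 did not pass (3 higher and 0 lower floored at counting noise). The shares of all genes tested were 11.7% higher and 11.3% lower (8.38% and 7.45% floored). Srebf2, whose product drives the cholesterol genes (ENSRNOG00000007400, chromosome 7, 123381077 to 123438603), had 1078 and 1134 counts in Pdk3 and 844 and 835 in Mock (1.32-fold, log2 fold change 0.40 ± 0.03, limma adjusted p = 0.000159). Srebf1, which serves fatty acid synthesis more and is itself a target of liver X receptors, had 341 and 365 counts in Pdk3 and 291 and 253 in Mock (1.3-fold, limma adjusted p = 0.00968). The call of Srebf1 ended with no intensity trend (adjusted p = 0.104) and with no filter on low values (adjusted p = 0.0876). The ratio of Srebf2 to Srebf1 counts was 3.16 and 3.11 in Pdk3 and 2.9 and 3.3 in Mock, with overlap between the groups (exact permutation p = 1.0, two-sided). Srebf1 shares 588 bases with Rai1 on the other strand, which had 914 and 909 counts in Pdk3 and 882 and 824 in Mock.

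The Insig genes moved apart. Insig1, itself induced by SREBP (ENSRNOG00000006859, chromosome 4, 342302 to 350515), had 387 and 392 counts in Pdk3 and 277 and 258 in Mock (1.46-fold, log2 fold change 0.54 ± 0.05, limma adjusted p = 0.000375). Insig2, its homologue, had 140 and 140 counts in Pdk3 against 177 and 160 in Mock, -0.26 ± 0.08 on the log2 scale and just past the threshold (limma adjusted p = 0.0493). That call ended with p floored at counting noise (adjusted p = 0.11), with no intensity trend or no filter on low values (0.107 in both), and with the replicate number as a block (adjusted p = 0.0615). Within a library, the ratio of Insig1 to Insig2 counts was 2.76 and 2.8 in Pdk3 and 1.56 and 1.61 in Mock. The lack of overlap follows from the opposite calls of these genes (exact permutation p = 0.333, the smallest possible).

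The genes that move and cut SREBP did not pass. Scap, the escort, had 732 and 764 counts in Pdk3 and 707 and 713 in Mock, a log2 fold change of 0.07 that was -0.003 when the median ribosomal protein gene was set level. Mbtps1, the protease that cuts first, had 837 and 855 counts in Pdk3 and 871 and 864 in Mock (log2 fold change -0.04, limma adjusted p = 0.372; -0.11 and 0.0159 with the median ribosomal protein gene level). Mbtps2, the protease that releases the active factor, had 174 and 189 counts in Pdk3 and 209 and 182 in Mock. The differences of these 3 genes were between -7.16% and 5.35%, smaller than those of Srebf1, Srebf2 and Insig1.

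Among genes of sterol movement and storage, Stard4 passed, and the other 3 did not. Stard4, a soluble carrier of cholesterol between membranes (ENSRNOG00000020468, chromosome 18, 25984638 to 25997555), had 449 and 452 counts in Pdk3 and 311 and 301 in Mock. It rose 1.47-fold (log2 fold change 0.56 ± 0.04, limma adjusted p = 0.000134), close to the folds of Msmo1 and Insig1. Npc1, the lysosomal membrane protein that releases cholesterol, had 318 and 364 counts in Pdk3 and 407 and 352 in Mock. Npc2, its soluble partner, had 456 and 446 counts in Pdk3 and 453 and 454 in Mock. Soat1, which esterifies cholesterol for storage, had 369 and 336 counts in Pdk3 and 353 and 369 in Mock. The groups overlapped for these 3 genes, with limma adjusted p of 0.231, 0.897 and 0.687.

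**Figure D4:**
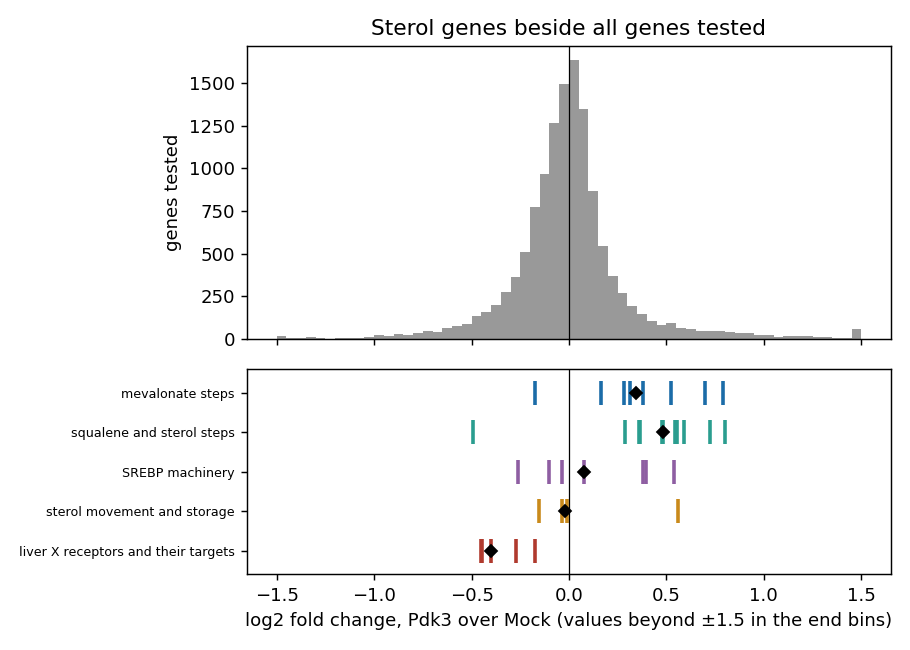
Upper panel, number of genes tested (y axis) by log2 fold change (x axis, Pdk3 over Mock, 12838 genes); lower panel, the sterol genes by role, with a diamond at each role's median. The medians of the enzymes stand at 0.35 and 0.48 and that of the liver X receptor group, which is the value of the low gene Mylip, at -0.40, while all genes tested centre at -0.01.

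Of the 5 liver X receptor genes and targets, 3 were lower and 0 higher, also when floored at counting noise. Across all genes tested, 11.3% were lower and 11.7% higher (7.45% and 8.38% floored). Abca1, the pump that loads cholesterol onto lipid-poor apolipoprotein (ENSRNOG00000018126, chromosome 5, 69857771 to 69983015), had 369 and 394 counts in Pdk3 and 544 and 501 in Mock. It fell by 0.45 ± 0.05 on the log2 scale (limma adjusted p = 0.00107). Abcg1, which passes cholesterol to larger lipoproteins (ENSRNOG00000001158, chromosome 20, 9743269 to 9840489), had 208 and 232 counts in Pdk3 and 299 and 300 in Mock (-0.45 ± 0.06 on the log2 scale, limma adjusted p = 0.00283). The differences of the pumps were -27.0% and -26.5%. Both calls ended with no intensity trend (adjusted p = 0.0543 and 0.0573).

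Of the receptors, Nr1h2, the broadly expressed one, had 349 and 355 counts in Pdk3 and 427 and 422 in Mock, a difference of -17.1% (limma adjusted p = 0.00306). Nr1h3, which is prominent in liver and macrophages, was low, with 51 and 59 counts in Pdk3 and 62 and 62 in Mock, and did not pass (limma adjusted p = 0.399). Mylip, a ubiquitin ligase that liver X receptors induce, had 29 and 15 counts in Pdk3 and 30 and 26 in Mock. Its Pdk3 libraries differed from each other by more than the group means did. The ratio of Hmgcs1 to Abca1 counts, a synthesis gene over an export gene, was 3.85 and 3.49 in Pdk3 and 1.78 and 1.94 in Mock (exact permutation p = 0.333, the smallest possible). That separation follows from the opposite calls of these genes and adds nothing to them.

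Abca1, Abcg1 and Nr1h3 are also expressed by macrophages, and some macrophage and leukocyte markers were lower too. Of 16 such markers listed, 15 were in the table and 14 were tested, with 6 lower and 0 higher (5 lower floored at counting noise). Their summed counts were 1622 and 1553 in the Pdk3 libraries and 1989 and 1871 in the Mock libraries, a difference of -17.7%. Csf1r, the receptor that sustains macrophages, had 235 and 251 counts in Pdk3 and 301 and 300 in Mock, and the complement gene C1qa had 55 and 52 in Pdk3 and 88 and 81 in Mock. Cx3cr1 was at 0 and 0 in Pdk3 and 1 and 2 in Mock. Of 9 endothelial markers, 2 were lower, among them Cdh5 with 134 and 129 counts in Pdk3 and 184 and 195 in Mock. The other 7 did not pass. Both Pdk3 libraries lay below both Mock libraries for 4 markers and above for 1, and 4 overlapped. The 1 above was Kdr, with 536 and 527 counts in Pdk3 and 467 and 502 in Mock. Of all genes tested, 11.7% were called higher and 11.3% lower. Both Pdk3 libraries lay below both Mock libraries for 31.1% of all genes tested and above for 29.9%. Of the other marker lists, 4 of 9 cardiomyocyte genes were higher and 1 lower, and 1 of 8 fibroblast genes was lower (near the share of all genes). Among smooth muscle genes, 4 of 8 were higher, and 2 of 6 epicardial genes and 2 of 3 red cell entries were lower. Both of those red cell entries carry the symbol Hba-a2, with at most 24 counts a library. The part of these cells in the lower pump counts was not tested.

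**Figure D5:**
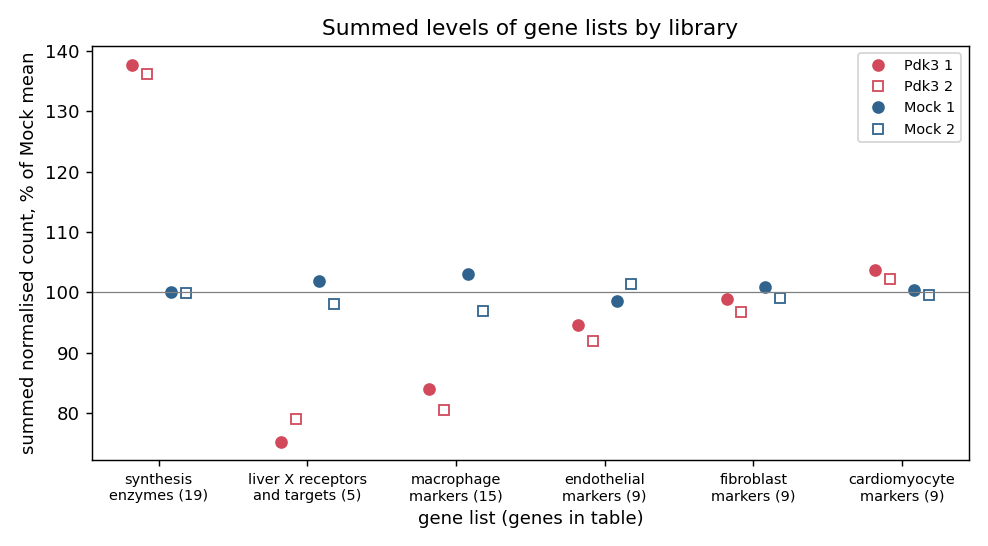
Summed normalised counts of gene lists (y axis, percent of the Mock mean) in Pdk3 1, Pdk3 2, Mock 1 and Mock 2. The synthesis enzymes stand 36.9% higher in Pdk3 than in Mock. The liver X receptor group differs by -22.9% and the macrophage markers by -17.7%, while the cardiomyocyte markers differ by 2.99%. Marker lists not drawn are the epicardial list at -19.3%, the red cell list of few counts at -52.0% and the smooth muscle list at 9.18%.

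Other genes around the pathway were read from lists of known members. Of 7 further genes of sterol synthesis and uptake that were tested, 5 were higher and 0 lower, with a median log2 fold change of 0.37. The shares of all genes tested were 11.7% higher and 11.3% lower. Tmem97, a sterol-regulated membrane protein, had 301 and 314 counts in Pdk3 and 194 and 205 in Mock (1.54-fold, limma adjusted p = 0.000343), and Erg28, a scaffold of sterol demethylation, had 144 and 154 in Pdk3 and 116 and 117 in Mock. These 2 genes were chosen after their values were seen. The branches of the mevalonate pathway that leave for ubiquinone, dolichol and prenylated proteins had 1 of 15 genes higher and 1 lower, with a median of 0.02. These counts are not above the shares of all genes tested and so are no result about the list. The higher one was Pdss1 of ubiquinone synthesis, with 169 and 161 counts in Pdk3 and 115 and 132 in Mock, and the lower one Dolk, dolichol kinase, with 234 and 264 in Pdk3 and 318 and 307 in Mock. Both calls ended with no filter on low values and with no intensity trend (adjusted p for Pdss1 0.0838 and for Dolk 0.0985).

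Genes of sterol-regulated degradation at the endoplasmic reticulum had 2 of 14 higher and 1 lower, shares near the 11.7% and 11.3% of all genes tested and so no result about the list. Rnf145, a ubiquitin ligase that liver X receptors induce in mouse, had 663 and 645 counts in Pdk3 and 572 and 574 in Mock. Syvn1, a ligase of general protein quality control, was lower, with 334 and 352 counts in Pdk3 and 436 and 389 in Mock. The calls of Rnf145 and Syvn1 ended with no intensity trend (adjusted p = 0.0798 and 0.134), and that of Syvn1 also with no filter on low values (adjusted p = 0.112).

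Of 22 sterol transfer genes, 1 was higher and 4 were lower, and floored at counting noise 0 were higher and 2 lower. All genes tested gave 11.7% higher and 11.3% lower (8.38% and 7.45% floored), and no result about the list is drawn. Scp2, the sterol carrier of peroxisomes, had 921 and 860 counts in Pdk3 and 1007 and 1028 in Mock, and Osbpl6, an oxysterol-binding protein, had 533 and 538 in Pdk3 and 609 and 679 in Mock. Both calls ended with no intensity trend (adjusted p = 0.123 and 0.116) and with no filter on low values. The median of the list, 0.01, was close to that of all genes tested.

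Enzymes of oxysterols and sterol esters had 4 of 9 tested genes lower and 0 higher, with a median of -0.26. Across all genes tested, 11.3% were lower and 11.7% higher. Cyp7b1, which hydroxylates oxysterols, had 34 and 35 counts in Pdk3 and 59 and 62 in Mock (log2 fold change -0.79 ± 0.14, limma adjusted p = 0.00725). Lipe, a lipase that also splits sterol esters, had 49 and 35 counts in Pdk3 and 95 and 95 in Mock, and Hsd3b7 of bile acid synthesis had 150 and 140 in Pdk3 and 177 and 189 in Mock. The calls of Lipe and Hsd3b7 ended with no intensity trend (adjusted p = 0.0573 and 0.073) and with no filter on low values.

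Further targets and partners of liver X receptors had 1 of 10 tested genes higher and 4 lower, and 0 higher and 3 lower floored at counting noise. All genes tested gave 11.7% higher and 11.3% lower (8.38% and 7.45% floored), so the 1 higher gene is near that share. Lpcat3, a target that remodels phospholipids, was the higher one, with 615 and 600 counts in Pdk3 and 558 and 551 in Mock. Smpdl3a, a target in human macrophages, had 392 and 370 counts in Pdk3 and 441 and 442 in Mock. Rxrb, a receptor that pairs with liver X receptors, had 247 and 262 counts in Pdk3 and 304 and 310 in Mock. The calls of Lpcat3, Smpdl3a and Rxrb ended with no intensity trend (adjusted p = 0.134, 0.0916 and 0.0691) and with no filter on low values.

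Fatty acid genes that SREBP1 controls had 8 of 13 tested genes higher and 3 lower (8 and 2 floored at counting noise), with a median log2 fold change of 0.26. The shares of all genes tested were 11.7% higher and 11.3% lower (8.38% and 7.45% floored). Scd, a desaturase induced by SREBP1 and by liver X receptors, had 561 and 591 counts in Pdk3 and 237 and 253 in Mock, whereas Gpam, which starts glycerolipid synthesis, had 613 and 608 in Pdk3 and 836 and 848 in Mock.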

How the data were processed

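RNA of 4 libraries was sequenced after a stranded mRNA preparation from 1 µg of total RNA, per the labels' protocols. Per the submitters' processing notes, FastQC, Trimmomatic 0.39, STAR 2.6.1d, featureCounts 1.6.5 (Subread), DESeq2 1.26.0 and build rn6 were used; no source used here gives their settings, strand mode or treatment of duplicates. The deposited values are whole numbers, read counts per gene after the authors' scaling between libraries, so they were treated as a score and not as raw counts. Library totals differed by 0.64%. Skipped and doubled whole numbers gave scaling factors of 0.9246 and 0.9627 for Pdk3 1 and Pdk3 2 and of 1.0256 and 1.0567 for Mock 1 and Mock 2, used to multiply values back to reads.

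Values were tested as log2(value + 1) with limma 3.58.1 in R 4.3.3 (intensity trend, group as the single term, 2 residual and 5.56 prior degrees of freedom) over 12838 genes that reached 10 in 2 or more libraries. P-values were two-sided and adjusted by Benjamini-Hochberg over all genes tested, with a threshold of 0.05. This scale understates changes of low genes. The highest gene of each library had 7809 to 8169 normalised counts. Whether values of abundant genes are compressed was not tested, so folds may not compare between low and abundant genes. SDs are over 2 libraries and SEs are from limma. No molecular identifiers are named, so the floor at counting noise covers counting error only. The fit was run on counts simulated with counting noise, which is wider than the spread within these pairs. That simulation does not show how the fit behaves at the narrower spread.

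The sterol genes and all lists were chosen with earlier results of these data known. Named are all 35 sterol genes, Pdk3, up to 3 called genes per direction from each further list by smallest p, and up to 2 called markers per cell type, from which examples are printed; some genes that this rule picks are not reported here. Myh6, Myl7, Col1a1 and Cx3cr1 are given for their levels, and Kdr because it went against the other endothelial example. The gene pairs of the ratios were not part of the planned tests. Promoters came from RefSeq, build GRCr8, matched by symbol, with the first listed start of each gene. Of the 35 genes, 5 overlap another gene of the table, 3 of them on the other strand (Idi1, Srebf1 and Npc1) and 2 on the same strand (Fdps and Tm7sf2).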

Additional observations from a re-analysis of the deposited data

How the results depend on the processing

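All 25 sterol genes called in either direction kept their direction under every alternative run. The number called higher was 19 and stayed at 16 to 19, and the number called lower was 6 and stayed at 4 to 7, under the replicate block, TMM scaling, a level median ribosomal protein gene, filters of 0 and 50, pseudocounts of 0.5 and 8, a threshold of 0.01 and p floored at counting noise. With no intensity trend, 15 were higher and 2 lower. With a minimum log2 fold change of 1, 0 sterol genes and 208 of all genes passed. Leaving out any 1 library left limma with 1 residual degree of freedom, the lone library of a group being assumed to vary like the other group, and 0 genes were called, sterol genes (0 to 0 in each direction) and all genes (0 to 0) alike; 21 to 25 sterol genes and 2916 to 3347 of all genes then had an unadjusted p under 0.05.

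Over all genes, 2945 were called; 1276 without a filter on low values, 851 without a trend and 1342 at a threshold of 0.01. A level median ribosomal protein gene shifted all genes by -0.077 on the log2 scale and gave 913 higher and 3067 lower (22.9% higher, against 50.8%), with the median of the 19 enzymes at 0.40, against 0.477. Without the intensity trend, 61.8% of the called genes were higher. Signs turned only for sterol genes that had not passed: Scap at -0.003 with the median ribosomal protein gene level, Npc2 at 0.002 with TMM scaling, and, without Pdk3 2, Npc2 at 0.008, Soat1 at 0.032 and Mylip at 0.052. Leaving out single libraries, these 3 ranged from -0.024 to 0.008, from -0.103 to 0.032 and from -0.855 to 0.052. The replicate numbers share no stated origin, and deviations of same-numbered libraries correlated at 0.038 across genes. The replicate block gave 2672 calls over all genes and 19 higher and 5 lower sterol genes, the lost call being Insig2; no other call of a sterol gene changed. Depth limits Mylip, Nr1h3 and Ebp most, with at most 111 counts a library.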
